A study of Mus musculus with 11 samples.

Results

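The genes described here are 10 transcripts tied to glucocorticoid signalling: Tsc22d3, Fkbp5, Zbtb16, Klf9, Klf15, Sgk1, Pdk4, Errfi1 and Cebpd, which the hormone induces in many cell types, and Nr3c1, which encodes the glucocorticoid receptor. All 10 were found by symbol among the 24411 genes of the count table, and all 10 were among the 16011 genes that passed a filter on low counts and were tested. The list was built around Tsc22d3, which was picked for its difference between pneumonectomy (PNX, surgical removal of lung tissue) and sham surgery at day 14. Values of that comparison are therefore given as description, with no test. Tests of the 10 genes are confined to day 7, whose libraries are not part of that difference. The model behind these tests covered all 11 libraries, so its estimates of spread also draw on day 14. The list was chosen with earlier results of these data known, so the day 7 tests are not fully independent of the choice.

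RNA was sequenced in bulk from C57BL6 mouse lung cells that carried none of the epithelial, leukocyte and endothelial surface proteins EpCAM, CD45 and CD31, a gate that leaves mesenchymal cells. The groups were PNX at day 14 with 3 libraries, sham at day 14 with 2 libraries, PNX at day 7 with 3 libraries and sham at day 7 with 3 libraries, 11 in all. Age, sex and time of day are not given in the labels used here, and no label says whether replicates were separate mice, so each p-value reflects only how these libraries varied, some of which may be technical. No unoperated lung was among the groups.

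Glucocorticoids such as corticosterone, the main adrenal steroid of the mouse, enter cells and bind the receptor encoded by Nr3c1. The receptor waits in the cytoplasm in a complex with heat shock chaperones and FKBP immunophilins, moves to the nucleus once bound, and sits as a dimer on palindromic DNA elements near the genes it induces. The same hormone promotes maturation of the fetal lung, and its release follows the time of day and rises with stress. In the lung mesenchyme it limits inflammatory gene expression in fibroblasts.

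Members fall into distinct roles. Tsc22d3 encodes GILZ, a leucine zipper protein that restrains inflammatory transcription factors, and Zbtb16 encodes the zinc finger repressor PLZF. Klf9, Klf15 and Cebpd encode transcription factors, and Sgk1 encodes a kinase that regulates ion channels. Pdk4 encodes a mitochondrial kinase that switches off the pyruvate dehydrogenase complex, and Errfi1 encodes an inhibitor of the EGF receptor. Fkbp5 encodes an immunophilin that binds the receptor complex and lowers its affinity for hormone, a feedback arm of the pathway.

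Promoter windows were examined because the receptor's element is a defined sequence, a 15-base palindrome of AGAACA, any 3 bases and TGTTCT. RefSeq windows of 300 bases on GRCm38.p6, 250 before and 50 after an annotated start, were at hand for 7 of the 10 genes and numbered 15. The exact palindrome, which reads the same on both strands, occurred in 1 of the 15 windows, at 1 of the 6 annotated starts of Sgk1, and in 3 of 32841 windows of all genes (0.00914%). It begins 189 bases before that start. The other 14 windows differed from the palindrome at 2 to 6 of its 12 fixed letters. A single arm, AGAACA or TGTTCT, occurred in 4 windows of 2 genes, Sgk1 and Tsc22d3, against 19.0% of all windows, and the palindrome itself holds both arms. The E-box CACGTG, the letters bound by clock factors and many other helix-loop-helix proteins, occurred in windows of Klf15, Fkbp5 and Sgk1 and in 7.15% of all windows. The Klf15 window held it 3 times, which 0.0883% of all windows do. These matches are letters only, and many elements of the receptor lie farther from a start than such windows reach. The Sgk1 window with the palindrome, the window at the most upstream start of Tsc22d3 and the Klf15 window are printed here, 5′ to 3′ on the gene's strand, because these genes carry the patterns described next. Capitals mark the palindrome in Sgk1, an arm in Tsc22d3 and the E-boxes in Klf15; the positions are chr10:21993640-21993939 (plus strand), chrX:140600473-140600772 (minus strand) and chr6:90462326-90462625 (plus strand).
Sgk1: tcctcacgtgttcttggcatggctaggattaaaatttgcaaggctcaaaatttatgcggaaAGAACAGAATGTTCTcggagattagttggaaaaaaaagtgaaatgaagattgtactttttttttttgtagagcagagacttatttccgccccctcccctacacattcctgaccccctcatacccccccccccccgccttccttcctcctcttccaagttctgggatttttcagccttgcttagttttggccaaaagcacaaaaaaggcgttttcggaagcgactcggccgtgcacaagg
Tsc22d3: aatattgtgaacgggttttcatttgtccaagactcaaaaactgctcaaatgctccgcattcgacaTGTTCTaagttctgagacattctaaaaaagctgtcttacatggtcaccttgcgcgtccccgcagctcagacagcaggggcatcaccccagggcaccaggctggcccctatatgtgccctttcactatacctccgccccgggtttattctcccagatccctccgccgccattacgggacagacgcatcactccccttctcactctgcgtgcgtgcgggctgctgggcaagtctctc
Klf15: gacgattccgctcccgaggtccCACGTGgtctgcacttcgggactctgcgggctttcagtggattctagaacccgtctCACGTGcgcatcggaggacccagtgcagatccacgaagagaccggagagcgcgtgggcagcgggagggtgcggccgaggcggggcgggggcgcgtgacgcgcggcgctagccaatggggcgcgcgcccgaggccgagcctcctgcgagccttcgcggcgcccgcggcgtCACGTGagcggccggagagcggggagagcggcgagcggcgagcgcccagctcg

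Levels are given as CPM, the count of a gene relative to the total of its library, with TMM factors that balance library composition. Total counts ran from 2539628 to 9008592 per library, and counts of the members from 17 to 7175. Without TMM factors the median fold change over all genes shifted by -0.19 at day 14 and 0.18 at day 7 on the log2 scale, so fold changes are relative to TMM. Mesenchymal genes were present throughout, with Col1a2 at 895 to 3783 CPM and Pdgfra at 155 to 1192 CPM. Markers of the gated-out cells remained as well: Ptprc, which encodes CD45, stood at 5.26 to 51.1 CPM, Epcam at 0.58 to 13.4 CPM, Pecam1, which encodes CD31, at 11.05 to 247 CPM, and the surfactant gene Sftpc at 23.5 to 15517 CPM. Counts on 4 Y-linked genes were absent from 4 libraries: replicates 2 and 3 of PNX day 14, replicate 1 of sham day 14 and replicate 3 of sham day 7. In bulk RNA, fewer cells of a type and less RNA per cell cannot be told apart.

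**Figure D1:**
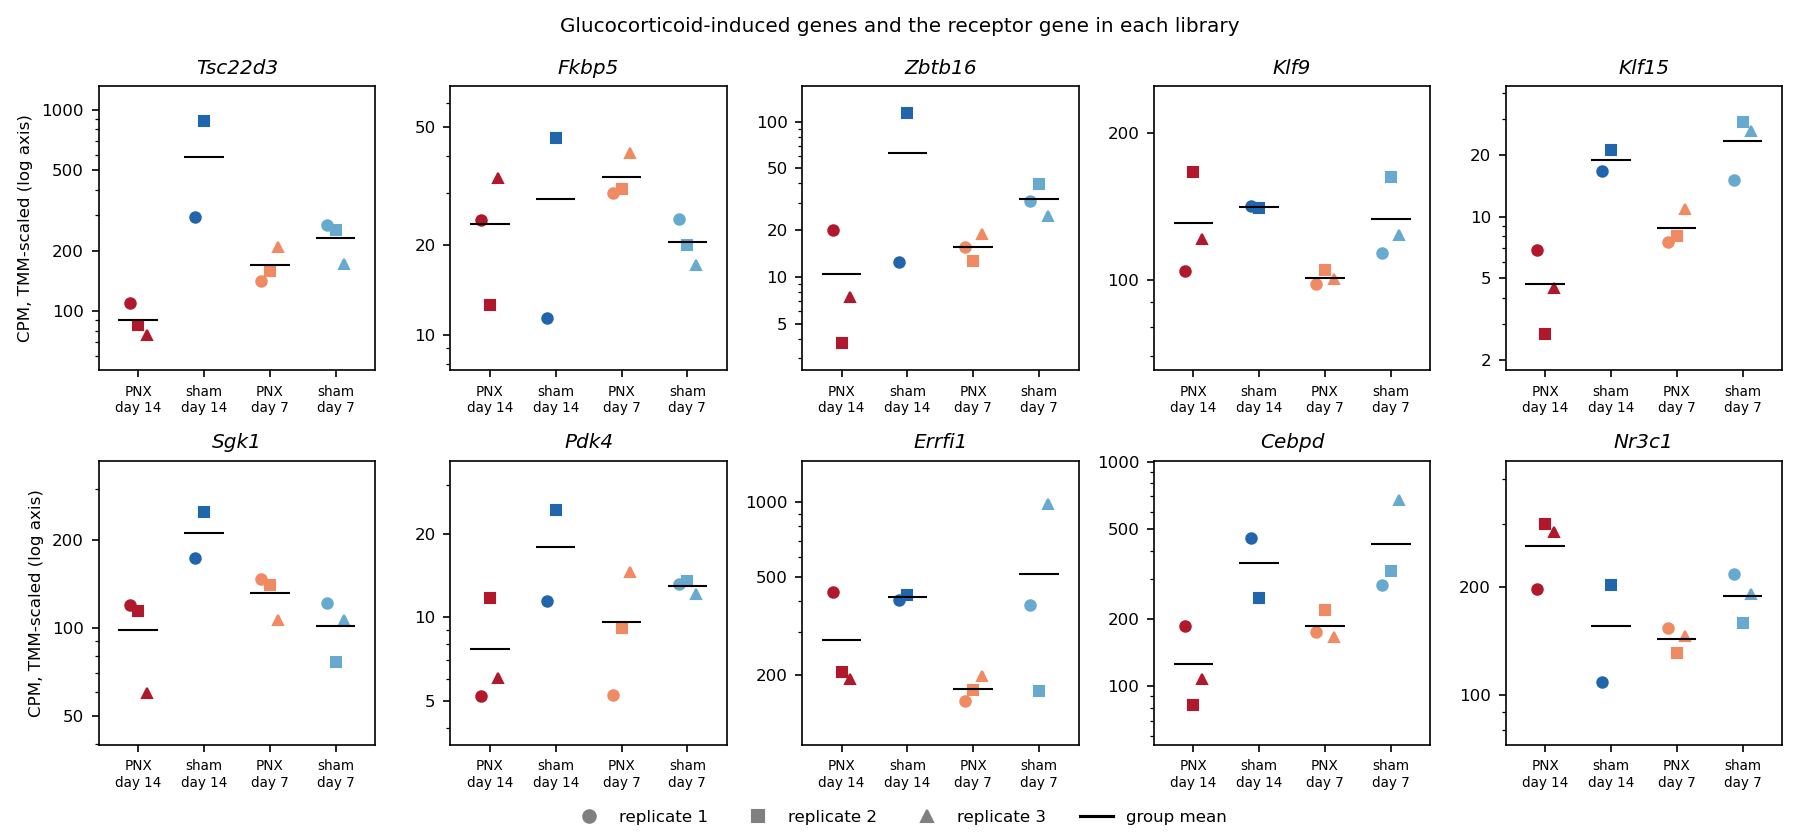
Level of each of the 10 genes in each of the 11 libraries, as TMM-scaled CPM on a log axis; point shapes mark replicate numbers and black lines group means. Tsc22d3 stood at 76.6 to 110 CPM in PNX day 14 and at 295 and 875 CPM in sham day 14, while in Klf15 and Cebpd the PNX libraries lie below the sham libraries of the same day on both days.

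Per kilobase of exon (GENCODE M21, all annotated exons of a gene joined), the 10 genes spanned a wide range in sham lungs at day 7. Errfi1 stood highest at 143 ± 118 CPM per kb, followed by Cebpd at 114 ± 57.1 and Tsc22d3 at 53.2 ± 12.02 (SD, n = 3 each). The order of Errfi1 and Cebpd rested on replicate 3, without which Errfi1 averaged 77.7 and Cebpd 81.5 CPM per kb. Klf9 at 27.7 ± 5.36, Nr3c1 at 24.7 ± 3.86 and Sgk1 at 20.7 ± 4.76 CPM per kb came next, and their ranges of mean ± SD overlapped. Klf15 stood at 8.39 ± 2.65, Zbtb16 at 6.004 ± 1.44, Pdk4 at 3.70 ± 0.20 and Fkbp5 at 2.17 ± 0.40 CPM per kb (SD, n = 3 each). Joined exons of several isoforms are longer than 1 transcript, so these levels can understate genes with many isoforms, such as Fkbp5 with 15 annotated transcripts over 9468 bases.

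Tsc22d3 is the gene the list was built around, on chromosome X (140539528 to 140600659 in mm10). At day 14 it stood at 110, 85.4 and 76.6 CPM in the 3 PNX libraries, against 295 and 875 CPM in the 2 sham libraries. The groups did not overlap, but the sham libraries differed 2.96-fold from each other, more than the 1.43-fold between the highest and lowest PNX library. The log2 fold change of PNX over sham was -2.69 ± 0.43 (SE), and it was -1.56 ± 0.39 without replicate 2 of sham day 14, where the 1 sham library left is assumed to vary like the others. Sham replicate 1, on which every value without replicate 2 rests, had the lowest total of the 11 libraries (2539628 counts), the most counts on olfactory and vomeronasal receptor genes (1635 CPM) and a mesenchymal marker sum of 10239 CPM, against 19793 CPM in sham replicate 2. The part of sex in Tsc22d3, an X-linked gene, was not tested.

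At day 7, outside the day 14 difference it was picked for, Tsc22d3 stood at 142, 159 and 209 CPM after PNX, against 268, 254 and 171 CPM after sham. The groups overlapped, since sham replicate 3 lay below PNX replicate 3. The log2 fold change was -0.44 ± 0.38 (adjusted p = 0.708 by edgeR's quasi-likelihood test, Benjamini-Hochberg over all 16011 genes). Ordered by group mean, Tsc22d3 was highest in sham day 14, then sham day 7 and PNX day 7, and lowest in PNX day 14. The ranges of sham day 7 and PNX day 7 overlapped and those of the other neighbours did not. Between days the PNX libraries were lower at day 14 than at day 7 without overlap (log2 fold change -0.91 ± 0.38), as were those of 9.08% of all genes. The sham libraries were higher at day 14 than at day 7 without overlap (1.34 ± 0.42), as were those of 12.5% of all genes, while 11.8% were lower. The sham difference was 0.19 without replicate 2 of sham day 14.

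Klf15, a zinc finger factor of amino acid and lipid metabolism, was low in every PNX library of both days. At day 14 it stood at 6.90, 2.67 and 4.50 CPM after PNX, against 16.8 and 21.2 CPM after sham, a log2 fold change of -2.03 ± 0.45 that was -1.70 ± 0.56 without replicate 2 of sham day 14. At day 7 it stood at 7.48, 8.03 and 10.9 CPM after PNX, against 15.04, 29.0 and 26.2 CPM after sham. The groups did not overlap at day 7, and the log2 fold change was -1.40 ± 0.41 (unadjusted p = 0.00287, adjusted p = 0.145 by edgeR). Klf15 passed the threshold of 0.05 with DESeq2 (adjusted p = 0.0457), with limma voom (0.0198) and, in edgeR, without replicate 1 of sham day 7 (-1.64, adjusted p = 0.0430); the adjusted p ran from 0.0198 to 0.583 over all settings tried. Within PNX it was lower at day 14 than at day 7 without overlap, by a log2 fold change of -0.92 ± 0.42. Its counts were small, 17 to 181 reads per library.

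Cebpd, a factor of the acute phase response, shared that order. At day 14 it stood at 186, 82.2 and 108 CPM after PNX, against 456 and 248 CPM after sham, a log2 fold change of -1.49 ± 0.44, or -0.998 without sham replicate 1. At day 7 it stood at 174, 218 and 166 CPM after PNX, against 283, 328 and 674 CPM after sham, again without overlap (-1.21 ± 0.41, unadjusted p = 0.00852, adjusted p = 0.204 by edgeR). With limma voom the day 7 difference passed (adjusted p = 0.0445). Without replicate 3 of sham day 7 the log2 fold change was -0.72 ± 0.41 (adjusted p = 0.914); adjusted p ran from 0.0445 to 0.914 over all settings. Exons of Cebpd overlap those of Spidr on the opposite strand by 562 bases, and the strand setting of the counting is not given in the sources used here, so some reads may belong to Spidr.

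Errfi1, the EGF receptor inhibitor, had the largest day 7 fold change of the 10. It stood at 157, 174 and 198 CPM after PNX, against 385, 172 and 984 CPM after sham at day 7. Sham replicate 2 lay among the PNX libraries, and sham replicate 3 stood apart at 984 CPM. That replicate 3 was also the only day 7 library without counts on the Y-linked genes, and the part of sex was not tested. The log2 fold change was -1.54 ± 0.49 (unadjusted p = 0.00609, adjusted p = 0.179 by edgeR; 0.0429 by DESeq2), and -0.66 ± 0.43 without sham replicate 3 (adjusted p = 0.970). Adjusted p ran from 0.0429 to 0.970 over all settings. At day 14 Errfi1 stood at 433, 206 and 193 CPM after PNX and at 402 and 424 CPM after sham, with overlap (-0.58 ± 0.54).

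Zbtb16, the PLZF repressor gene, was dominated by 1 library at day 14. It stood at 19.96, 3.77 and 7.42 CPM after PNX, against 12.4 and 113 CPM after sham. The 2 sham libraries differed 9.11-fold, and the groups overlapped. The log2 fold change was -2.61 ± 0.76 with both sham libraries. It was -0.13 ± 0.66 without sham replicate 2, -3.46 without sham replicate 1 and -3.52 without PNX replicate 1. At day 7 Zbtb16 stood at 15.5, 12.7 and 18.8 CPM after PNX, against 30.8, 39.7 and 24.6 CPM after sham, without overlap (-1.01 ± 0.68, adjusted p = 0.622 by edgeR). That standard error also draws on the day 14 libraries. With only the day 7 libraries in the fit, the value was -0.98 ± 0.32 (adjusted p = 0.172 by edgeR).

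Sgk1, the kinase gene with the palindrome in a promoter window, stood at 120, 114 and 59.6 CPM after PNX at day 14, against 174 and 249 CPM after sham. The groups did not overlap, and the log2 fold change was -1.11 ± 0.37, or -0.68 ± 0.43 without sham replicate 2. At day 7 it stood at 147, 141 and 106 CPM after PNX and at 122, 76.0 and 106 CPM after sham, with overlap and the opposite sign (0.37 ± 0.34, adjusted p = 0.729 by edgeR). Sham libraries were higher at day 14 than at day 7 without overlap (1.06 ± 0.37, or 0.61 without sham day 14 replicate 2), and PNX libraries overlapped between days (-0.42 ± 0.34).

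Pdk4, the pyruvate dehydrogenase kinase gene, stood at 5.22, 11.8 and 6.07 CPM after PNX at day 14, against 11.4 and 24.4 CPM after sham. The groups overlapped, and the log2 fold change of -1.23 ± 0.50 was -0.41 ± 0.64 without sham replicate 2. At day 7 it stood at 5.27, 9.14 and 14.5 CPM after PNX and at 13.2, 13.5 and 12.2 CPM after sham, with overlap (-0.42 ± 0.45, adjusted p = 0.767 by edgeR).

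Fkbp5, the feedback immunophilin, had a positive day 7 fold change. It stood at 29.9, 31.0 and 40.9 CPM after PNX, against 24.6, 19.97 and 17.1 CPM after sham, with every PNX library above every sham library (0.72 ± 0.44, adjusted p = 0.551 by edgeR). At day 14 it stood at 24.3, 12.6 and 33.7 CPM after PNX, and at 11.4 and 45.7 CPM after sham, so that the sham libraries enclosed the PNX libraries. The day 14 log2 fold change was -0.31 ± 0.48 with both sham libraries and 1.18 ± 0.56 without sham replicate 2, a change of sign.

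Klf9 had the day 14 fold change nearest 0 of the 10. It stood at 104, 167 and 122 CPM after PNX and at 142 and 141 CPM after sham (-0.11 ± 0.33). At day 7 it stood at 98.1, 105 and 101 CPM after PNX, against 114, 163 and 124 CPM after sham, without overlap (-0.40 ± 0.30, adjusted p = 0.657 by edgeR). Nr3c1, the receptor gene itself, stood at 198, 301 and 285 CPM after PNX at day 14 and at 109 and 202 CPM after sham, with overlap (0.74 ± 0.37, and 1.41 ± 0.45 without sham replicate 2). At day 7 it stood at 154, 131 and 146 CPM after PNX, against 218, 159 and 192 CPM after sham, without overlap (-0.40 ± 0.33, adjusted p = 0.690 by edgeR). Within PNX, Nr3c1 was higher at day 14 than at day 7 without overlap (0.86 ± 0.33), as were 9.02% of all genes.

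**Figure D2:**
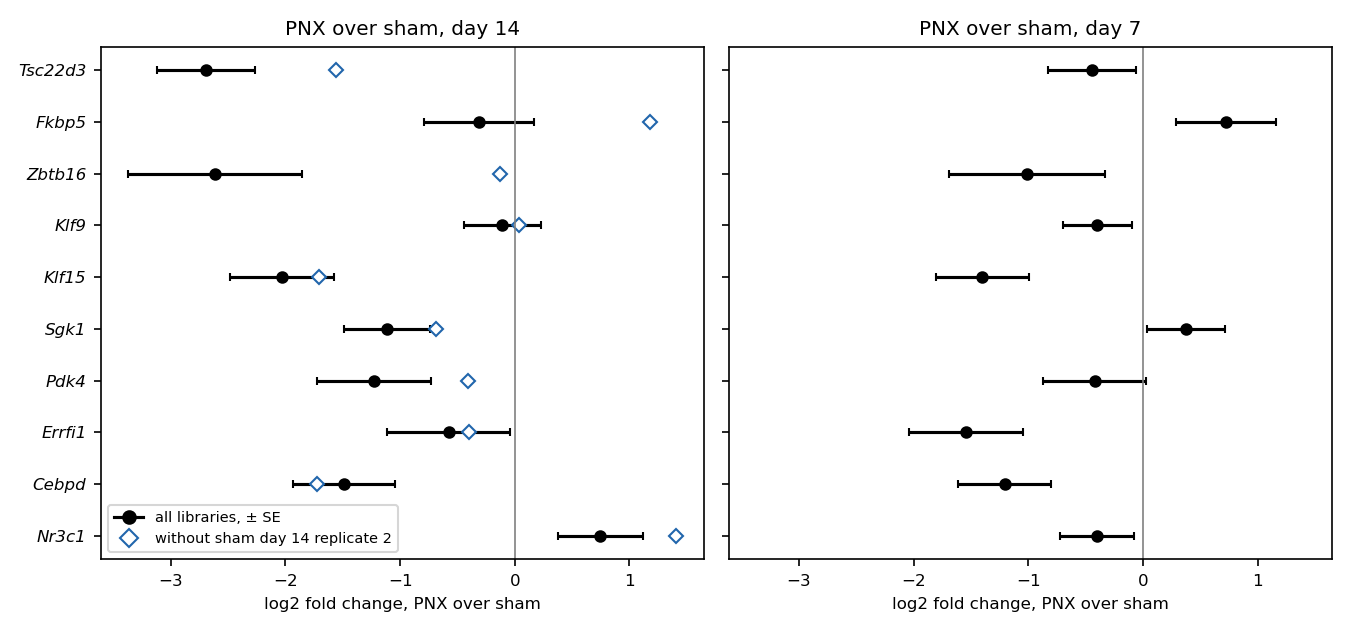
Log2 fold change of PNX over sham at day 14 (left) and day 7 (right) for the 10 genes, with standard errors from edgeR; open diamonds give the day 14 value without replicate 2 of sham day 14. Without that library Tsc22d3 stood at -1.56, Zbtb16 at -0.13, Fkbp5 at 1.18, Klf15 at -1.70 and Cebpd at -1.73.

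Counted over the list, 0 of the 10 genes passed the threshold at day 7 by edgeR, where 0.0375% of all genes did. DESeq2 called 2, Klf15 and Errfi1, where it called 3.51% of all genes with an adjusted p, and limma voom called 2, Klf15 and Cebpd, where it called 5.16% of all genes. At an unadjusted p under 0.05, 3 of the 10 were lower after PNX (Klf15, Errfi1 and Cebpd) and 0 higher, where 8.07% of all genes were lower and 4.66% higher; without replicate 3 of sham day 7 that count was 1, where 3.46% of all genes were lower. Of the 10, 8 had a negative day 7 fold change and 2, Fkbp5 and Sgk1, a positive one, with a median of -0.43 beside 0.03 over all genes. PNX libraries lay below all sham libraries at day 7 for 5 genes (Zbtb16, Klf9, Klf15, Cebpd and Nr3c1), where 9.57% of all genes did, and above them for Fkbp5, where 9.95% did. At day 14, 9 of the 10 were lower after PNX (median -1.17, beside -0.07 over all genes) and 4, Tsc22d3, Klf15, Sgk1 and Cebpd, did not overlap, where 8.28% of all genes were lower without overlap; Tsc22d3 was chosen on this comparison. Without replicate 2 of sham day 14, 7 of the 10 were lower and the median was -0.40. Klf15 and Cebpd were lower without overlap on both days, as were 1.11% of all genes. Whether the PNX difference itself changed between days was not tested for these genes.

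Replicate 2 of sham day 14 was the highest of all 11 libraries for 5 of the 10 genes (Tsc22d3, Fkbp5, Zbtb16, Sgk1 and Pdk4) and exceeded replicate 1 in 8. Both sham day 14 libraries also stood highest in haematopoietic markers, a list of 24 genes whose summed level was 539 to 804 CPM in PNX day 14, 1826 and 1833 CPM in sham day 14, 262 to 631 CPM in PNX day 7 and 165 to 1025 CPM in sham day 7. At day 14 all 24 were lower after PNX and 19 did not overlap, where 8.28% of all genes were lower without overlap. In each PNX library of day 14, 2 of the 24 had no count, and in every other library 0. Erythroid genes, a list of 5 kept apart from those 24, did not share that order. They summed to 254 to 79877 CPM in PNX day 14, and to 23509 and 3033 CPM in sham day 14. At day 7 they summed to 3742 to 24169 CPM after PNX and 5008 to 17819 CPM after sham. The part of leukocyte RNA in the day 14 values was not tested. Between sham replicates 1 and 2, single markers differed more than the sum, and in both directions. Ptprc stood at 17.8 and 51.1 CPM and the plasma cell gene Mzb1 at 16.8 and 26.8 CPM. Cd79a stood at 19.5 and 10.4 CPM and Lyz2 at 649 and 476 CPM, lower in replicate 2.

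**Figure D3:**
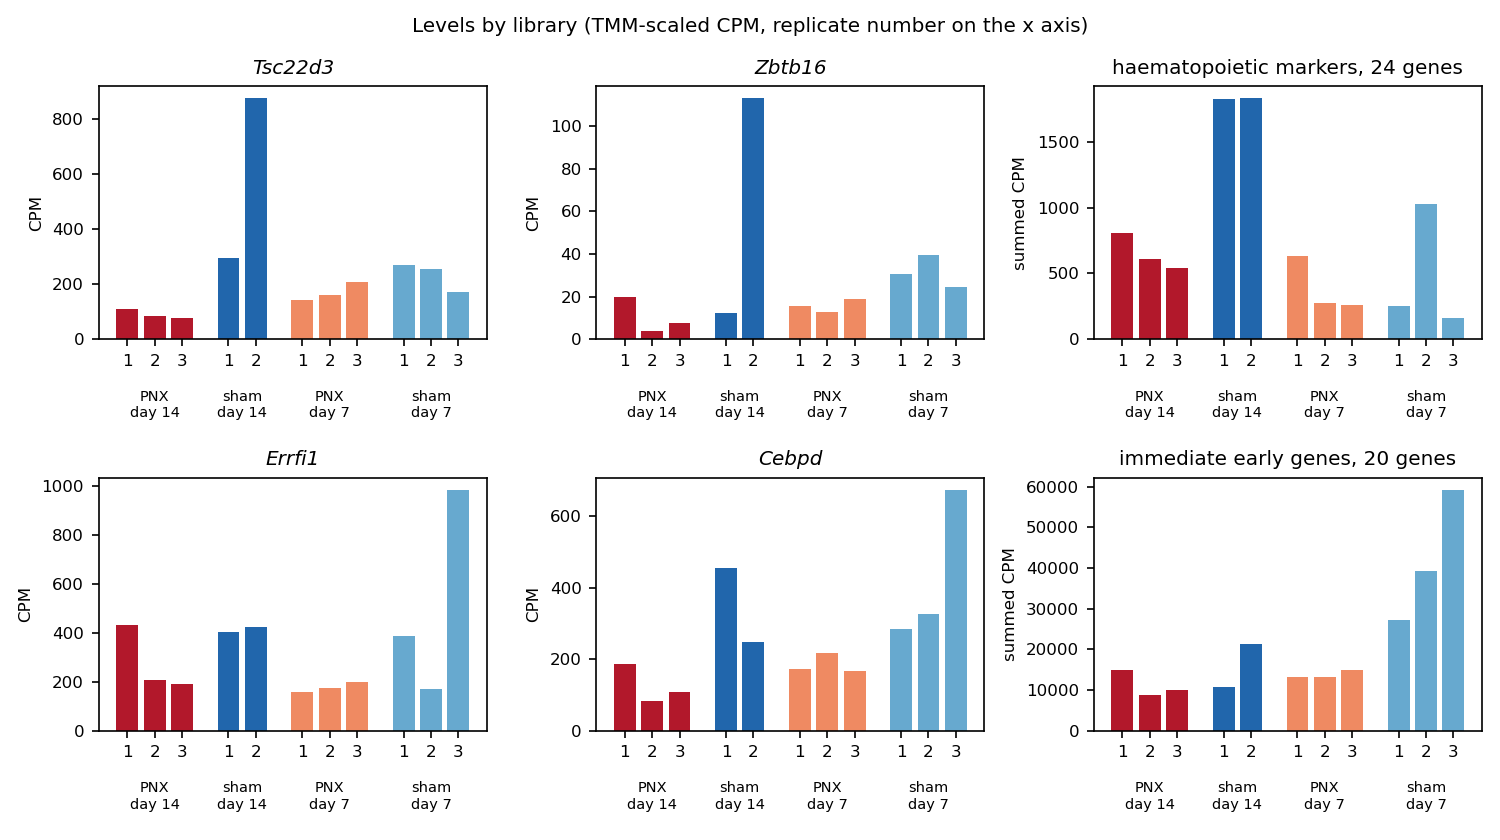
Level in each library of Tsc22d3 and Zbtb16 beside the summed level of 24 haematopoietic markers (top), and of Errfi1 and Cebpd beside the summed level of 20 immediate early genes (bottom), all as TMM-scaled CPM. The marker sum was highest in both sham day 14 libraries, at 1826 and 1833 CPM. Single markers differed there in both directions, with Ptprc at 17.8 and 51.1 CPM and Cd79a at 19.5 and 10.4 CPM. Errfi1, Cebpd and the immediate early sum were all highest in replicate 3 of sham day 7.

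Immediate early genes, a rapid response to stimuli such as tissue dissociation, were lower after PNX at day 7 in 16 of 20. Of all 16011 genes, 7731 were lower. At an unadjusted p under 0.05 by edgeR, 11 of the 20 were lower and 1 higher, where 8.07% of all genes were lower and 4.66% higher. PNX libraries lay below all sham libraries for 10 and above them for 1, where 9.57% and 9.95% of all genes did. The summed level of the 20 genes was 13155 to 15017 CPM after PNX, against 27124 to 59307 CPM after sham. The sum was largest in replicate 3 of sham, the library with the highest Errfi1 and Cebpd. At day 14 it was 8878 to 14981 CPM after PNX and 10844 and 21226 CPM after sham. Clock genes other than Per1, 17 in number, summed to 766 to 1001 CPM after PNX and 1208 to 1774 CPM after sham at day 7, and to 857 to 1006 CPM after PNX and 662 and 1359 CPM after sham at day 14. The part of handling or of time of day in the glucocorticoid genes was not tested.

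Other glucocorticoid-induced genes, a list of 26 that leaves out the 10, were split. At day 7, 15 were lower and 11 higher after PNX (median -0.47, beside 0.03 over all genes), and 0 passed by edgeR. At an unadjusted p under 0.05, 4 were lower and 2 higher, where 8.07% of all genes were lower and 4.66% higher. Il6ra, an interleukin 6 receptor chain, stood at 23.3 ± 6.51 CPM after PNX and 83.1 ± 16.1 CPM after sham (SD, n = 3 each; -1.83 ± 0.41, adjusted p = 0.0783 by edgeR). Foxo3, a forkhead factor, stood at 2.34 ± 0.69 and 15.02 ± 11.02 CPM (-2.69 ± 0.81, adjusted p = 0.153). The metallothionein genes, which encode metal-binding proteins, had the opposite sign. Mt2 stood at 114 ± 74.4 CPM after PNX and 39.8 ± 17.9 CPM after sham (1.52 ± 0.46, adjusted p = 0.153), and Mt1 at 444 ± 258 and 214 ± 102 CPM (1.05 ± 0.44, adjusted p = 0.321). Without PNX replicate 3, Mt2 was 0.79 and Mt1 0.42. At day 14, 19 of the 26 were lower and 7 higher (median -0.29, beside -0.07).

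Partners of the receptor, a list of 18 chaperones, coactivators, corepressors and steroid-converting enzymes, were split at day 7, with 8 lower and 10 higher (median 0.04). By edgeR 0 passed the threshold. At an unadjusted p under 0.05, where 8.07% of all genes were lower and 4.66% higher, 0 were lower and 1 was higher. That was Hsp90aa1, a stress-inducible chaperone gene, at 790 ± 404 CPM after PNX and 344 ± 141 CPM after sham (SD, n = 3 each; 1.20 ± 0.43, adjusted p = 0.234 by edgeR), or 0.69 without PNX replicate 2. Nr3c2, which encodes the mineralocorticoid receptor that also binds corticosterone, stood at 3.46 ± 0.22 and 8.38 ± 2.43 CPM (-1.28 ± 0.64, adjusted p = 0.427). Among 15 paralogues of the members, 5 were lower and 10 higher at day 7 (median 0.22), and 0 passed by edgeR. At an unadjusted p under 0.05, 3 were lower and 0 higher, where 8.07% of all genes were lower and 4.66% higher. The 3 were Tsc22d4, Pdk2 (-1.19 ± 0.41, adjusted p = 0.213 by edgeR) and Klf10 (-0.91 ± 0.39, adjusted p = 0.322). Tsc22d4 stood at 18.3 ± 6.01 CPM after PNX and 78.1 ± 59.2 CPM after sham, with overlap (-2.11 ± 0.55, adjusted p = 0.120 by edgeR). Without replicate 3 of sham day 7 it was -1.42 (adjusted p = 0.659 by edgeR). At day 14 Tsc22d4 stood at 11.2 ± 4.17 CPM after PNX (n = 3) and 15.4 ± 6.75 CPM after sham (n = 2), with overlap.

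Genes that glucocorticoids repress, mostly cytokines and proteases, numbered 16, of which 14 were tested. At day 7, 5 were lower and 9 higher after PNX (median 0.12), and 0 passed by edgeR. At an unadjusted p under 0.05, 4 were higher and 1 lower, where 4.66% of all genes were higher and 8.07% lower. The chemokine gene Cxcl5 stood at 21.1, 10.8 and 88.0 CPM after PNX and at 6.75, 4.94 and 2.75 CPM after sham (3.06 ± 0.65, adjusted p = 0.0783 by edgeR). Without PNX replicate 3 its log2 fold change was 1.69 (adjusted p = 0.238 by edgeR). Over all single libraries left out, the adjusted p ran from 0.0131 to 0.372. Cxcl1 (0.93 ± 0.40, adjusted p = 0.332) and Ccl7 (1.08 ± 0.47, adjusted p = 0.339) were also higher, and Ccl7 was 0.68 without sham replicate 2 and 1.77 without sham replicate 3. Csf1, a macrophage growth factor gene, was the lower one, at 72.3 ± 7.11 and 257 ± 149 CPM (-1.83 ± 0.42, adjusted p = 0.0853; SD, n = 3 each).

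**Figure D4:**
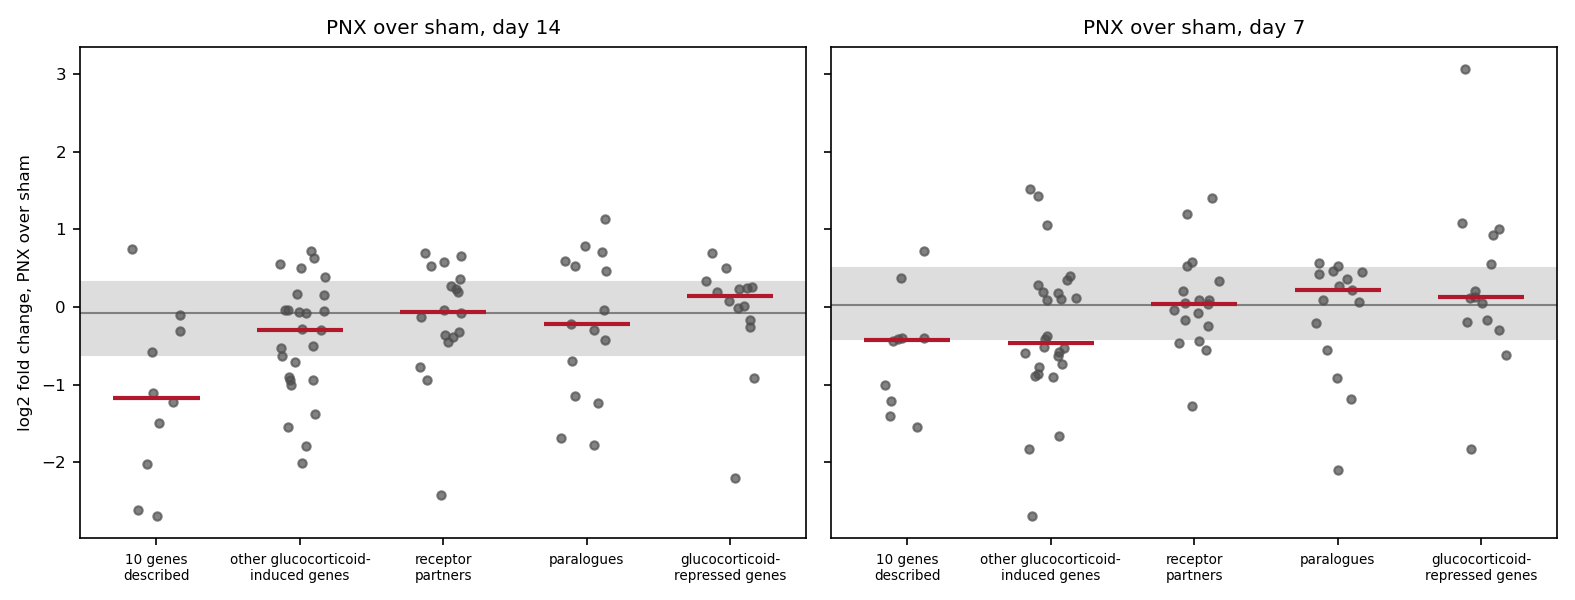
Log2 fold change of PNX over sham at day 14 (left) and day 7 (right) for each tested gene of the 5 lists, with red lines at list medians; the grey line and band give the median and interquartile range of all 16011 genes. The 10 genes described had medians of -1.17 at day 14 (-0.40 without replicate 2 of sham day 14) and -0.43 at day 7, and the other glucocorticoid-induced genes -0.29 and -0.47.

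Across all 11 libraries, the genes whose log2 CPM was most like that of Tsc22d3 were Mat2a, Zbtb16, Lnp, Cdo1 and Cnn2, out of 9433 genes averaging 3 or more in log2 CPM. Pearson's r was 0.85 for Mat2a, 0.85 for Zbtb16, 0.84 for Lnp, 0.84 for Cdo1 and 0.82 for Cnn2, and without replicate 2 of sham day 14 it was 0.62, 0.70, 0.72, 0.76 and 0.77 in the same order. Mat2a encodes a methionine adenosyltransferase and Cdo1 a cysteine dioxygenase. Among the members, Pdk4 ranked 17 (r = 0.78), Klf15 26 (0.75), Sgk1 68 (0.67) and Cebpd 330 (0.53). Errfi1 ranked 1509 (0.31), Fkbp5 1901 (0.26) and Klf9 2428 (0.20), and Nr3c1 had a negative r (-0.38). Spearman's rho, which uses ranks of the libraries, gave another order. It was 0.82 for Klf15, 0.70 for Pdk4 and Cebpd, 0.65 for Zbtb16 and 0.49 for Sgk1. For Errfi1 it was 0.25, for Klf9 0.22, for Fkbp5 0.05 and for Nr3c1 -0.37. These are descriptions over 11 libraries that share 4 groups and 1 library of very high Tsc22d3, and carry no test.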

How the data were processed

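The submitters' processing notes name mm10 and bcl2fastq 2.20.0.422; the aligner, counting tool, annotation and strand setting are not given in the sources used here. The authors deposited whole read counts per gene symbol, 1 column for each of 11 libraries with 2539628 to 9008592 counts, none rescaled. Each column was matched to its sample by title.

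The main test was edgeR 4.0.16 under R 4.3.3. Its filterByExpr kept 16011 of 24411 genes. TMM scaling and 1 robust quasi-likelihood model covered all 11 libraries in 4 groups, p-values were Benjamini-Hochberg adjusted over those 16011, and the threshold was 0.05. Standard errors are the absolute log2 fold change divided by the square root of F. Alternatives used DESeq2 1.42.0, limma 3.58.1 (voom), other scalings, filters and libraries. The steps were tested on simulated data. Locations and exon lengths came from GENCODE M21 and promoter windows from RefSeq. Figures were drawn with matplotlib 3.10.9.

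The members, the lists and the rules were chosen with earlier results of these data known. Genes described from the other glucocorticoid, partner and paralogue lists were taken from the 4 of smallest day 7 p per list. Exceptions are Hsd11b1 and Tsc22d1, chosen after their values were seen. Hsp90ab1, H6pd and Cebpg were also among those 4 and are not described above. Their day 7 log2 fold changes were 0.58, -0.55 and 0.46. Genes most like Tsc22d3 are the 5 of highest r, predicted genes left out. Replicate numbers were not taken as pairs of samples.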

Additional observations from a re-analysis of the deposited data

Results flagged for a closer look

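Mt2, a metallothionein gene induced by glucocorticoids and metals, differed in opposite directions on the 2 days. At day 14 it stood at 54.2 ± 21.6 CPM after PNX (n = 3) and 141 ± 52.2 CPM after sham (SD, n = 2), every PNX library below both sham libraries (-1.38 ± 0.49). At day 7 every PNX library stood above every sham library, at 114 ± 74.4 and 39.8 ± 17.9 CPM (SD, n = 3 each; 1.52 ± 0.46). The PNX difference of day 7 exceeded that of day 14 by 2.90 on the log2 scale, which did not pass as an interaction over all genes (adjusted p = 0.267 by edgeR). Mt2 was picked for its complete opposite separation on these same values, so that p is not an independent test. Without replicate 3 of PNX day 7 its day 7 value was 0.79. Of all genes, 8.28% were lower after PNX without overlap at day 14, and 9.95% were higher without overlap at day 7. How many genes did both was not counted.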

How the results depend on the processing

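At day 7 the sign of every member's log2 fold change held in all 22 settings tried. One setting kept only libraries with Y-linked counts, which at day 7 leaves out replicate 3 of sham. There Errfi1 was -0.70 and Cebpd -0.76, against -1.54 and -1.21 with all libraries. Tsc22d3 was -0.66 there, against -0.44, and Klf15 -1.35, against -1.40. The 0 members past the threshold became 2 with DESeq2 and 2 with limma voom, and 0 to 1 when 1 library was left out, the 1 being Klf15 without replicate 1 of sham day 7, where 2.66% of all genes passed. The 3 members lower at an unadjusted p under 0.05 became 5 with limma voom, where 13.2% of all genes were lower at that p against 8.07% by edgeR, and 1 to 4 when 1 library was left out, where 3.46% to 9.5% were. Over all genes, the 6 higher and 0 lower calls became 12 higher with total counts, 44 and 134 without a filter on low counts, 2 higher with a covariate for olfactory and vomeronasal receptor counts, 14 and 8 without the 3 libraries highest in those counts, 129 and 313 with DESeq2, 249 and 577 with limma voom, and 1 lower each with RLE size factors and with only the 2 groups compared. Leaving out 1 library gave 3 to 39 higher and 0 to 386 lower calls, the highest without replicate 1 of sham day 7. The causes were not tested. At day 14 the log2 fold change of Tsc22d3 ran from -3.28 to -1.56 when 1 library was left out. Between days it ran from 0.19 to 1.93 in sham and from -1.06 to -0.71 in PNX. The settings for the comparisons between days were added after seeing the data.

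With the replicate number as a block, 0 members, 9 genes higher and 0 lower were called at day 7, and Tsc22d3 stood at -2.56 at day 14. Deviations of same-numbered libraries at day 7 correlated at -0.12, 0.53 and 0.34, and 1 of 3 PNX libraries correlated best with the sham library of its own number. Such deviations are taken from means of 3 libraries and depend on each other, so this check cannot exclude pairing. The labels name no pairs, and the numbers were not taken as pairs. Klf15, Zbtb16 and Pdk4 had as few as 17, 24 and 27 counts in a library, which limits their precision. Il6ra, Foxo3, Tsc22d4, Cxcl5 and Csf1 each passed the threshold by edgeR without at least 1 library. For all 5, replicate 1 of sham day 7 was among those libraries, and without it 2.66% of all genes passed, against 0.0375% with all libraries. Without replicate 3 of sham day 7 the adjusted p by edgeR was 0.336, 0.769, 0.659, 0.372 and 0.485 in the same order. Leaving out libraries for genes outside the members was added after seeing the data.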

Other observations

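Hsd11b1, which encodes the enzyme that regenerates active corticosterone inside cells, differed between days rather than between surgeries. It was chosen after its values were seen. It stood at 1398, 2822 and 1754 CPM in PNX day 14 and at 985, 569 and 872 CPM in PNX day 7, without overlap (log2 fold change of day 14 over day 7, 1.30 ± 0.40). In sham lungs it stood at 1963 and 3140 CPM at day 14 and at 1485, 780 and 1026 CPM at day 7, also without overlap (1.22 ± 0.43). Of all genes, 9.02% were higher at day 14 than at day 7 without overlap in PNX, and 12.5% in sham. Between surgeries the groups overlapped on both days, with log2 fold changes of PNX over sham of -0.36 ± 0.44 at day 14 and -0.44 ± 0.39 at day 7 (adjusted p = 0.723 at day 7 by edgeR). Tsc22d1, a paralogue of Tsc22d3 chosen in the same way, stood at 638, 774 and 710.5 CPM in PNX day 14, 417 and 1223 CPM in sham day 14, 728, 537 and 1145 CPM in PNX day 7 and 1032, 550 and 730 CPM in sham day 7, with overlap on both days.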
